A study of Homo sapiens with 10 samples.

Results

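The RB family and the CDK inhibitors are described here as 9 genes out of 57993 gene symbols measured in HCT116, a line of human colorectal carcinoma cells. They were taken by symbol, with no cutoff on measured values, although the symbols were chosen with earlier results of these data known. The members are the pocket proteins RB1, RBL1 and RBL2, the CIP/KIP inhibitors CDKN1B and CDKN1C, and the INK4 inhibitors CDKN2A, CDKN2B, CDKN2C and CDKN2D. CDKN1A, the remaining CIP/KIP gene, was not a member. All 9 members were among the 17779 genes that passed the filter on low values, and in each case every one of the 10 libraries was above it.

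Each group was harvested 24 hours after transfection, as cells sorted for GFP. Cells labelled KDM5A-/- carried an empty vector in 3 libraries, a plasmid for wild-type KDM5A in 3 libraries, or a plasmid for mutant KDM5A in 2 libraries, and the labels do not name the mutation. Parental HCT116 cells carried the empty vector in 2 libraries. Both lines were bought from Horizon, the medium held 5% serum in both, and G418 was added to the knockout culture only, so genotype, line history and G418 cannot be told apart in the parental comparison. The libraries of a group are not described as separate cultures, and p-values therefore measure the spread between these libraries, which may be technical.

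Values were read as FPKM, a level per length of transcript, brought to a common scale across libraries, and are called scaled values. Scaled KDM5A ran from 12.2 to 15.3 in the knockout libraries with empty vector and from 13.3 to 17.7 in the parental libraries, so the whole-gene value does not separate the genotypes and does not check the knockout label. It ran from 13450 to 23350 in the 5 libraries given a KDM5A plasmid. The colorectal epithelial markers EPCAM, CDH1, KRT8, KRT18, KRT19 and CDX2 were at 1 or more, while VIL1 and CDX1 were below 1 in every library, as were the leukocyte genes PTPRC and CD3E. CD14, another leukocyte gene, was at 1.17 to 1.94 without and 3.87 to 6.41 with a KDM5A plasmid. Of the fibroblast and smooth muscle genes, COL3A1 and DCN were below 1, and COL1A1 was at 13.5 to 28.7. ACTA2 was at 23.9 and 25.5 in parental cells and 10.8 to 12.9 in knockout cells with empty vector. PECAM1, HBB and ALB reached at most 1.15, 1.55 and 1.29. Protein-coding genes held 90.5% of the total in both mutant libraries and 89.7% in parental library 2, against 92.6% to 92.9% in the other 7. In bulk RNA, fewer cells of a type and less RNA per cell cannot be told apart.

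Entry into S phase is held back by the pocket proteins, which bind E2F transcription factors and keep their target genes silent until cyclin-dependent kinases phosphorylate them. INK4 proteins bind CDK4 and CDK6 and block cyclin D, whereas CIP/KIP proteins act on complexes with cyclin E and cyclin A as well. KDM5A, a demethylase of histone H3 lysine 4, was first isolated as a protein that binds RB, and the pocket proteins and the inhibitors upstream of them were therefore read together. HCT116 is known to carry a frameshift in a single copy of CDKN2A and methylation of the other copy, so an RNA value of CDKN2A in this line is not a measure of functional p16 protein.

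Promoter sequences were available for 8 of the 9 members from RefSeq (GRCh38.p14), although the only RB1 entry starts inside its gene and was not used. Those shown are of RBL1, an E2F-regulated gene in its own right, and of the neighbouring CDKN2A and CDKN2B, which are described below for the parental comparison. They are on the strand of the gene, 5′ to 3′, and leave out any base inside the deposited gene. Those of RBL1 and CDKN2A end at the base before the annotated start. That of CDKN2B leaves out the last 58 bases before its annotated start, which lie inside the deposited gene. Capitals mark E2F words (TTTCCCGC, TTTCGCGC, TTTGCCGC or TTTGGCGC) in RBL1. In CDKN2B they mark CCGCCC, the word described for the DNA-binding domain of KDM5A, or its reverse complement GGGCGG. The CDKN2A window shown holds neither kind of word, and the window before the other CDKN2A start, not shown, holds GGGCGG at -37.
RBL1 (chr20:37095998-37096247, minus strand): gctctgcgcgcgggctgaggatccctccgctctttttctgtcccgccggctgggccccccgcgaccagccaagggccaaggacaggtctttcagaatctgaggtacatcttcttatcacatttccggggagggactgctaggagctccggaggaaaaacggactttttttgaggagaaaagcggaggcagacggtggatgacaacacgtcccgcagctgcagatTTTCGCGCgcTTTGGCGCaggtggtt
CDKN2A, upstream of the ARF start (chr9:21995325-21995574, minus strand): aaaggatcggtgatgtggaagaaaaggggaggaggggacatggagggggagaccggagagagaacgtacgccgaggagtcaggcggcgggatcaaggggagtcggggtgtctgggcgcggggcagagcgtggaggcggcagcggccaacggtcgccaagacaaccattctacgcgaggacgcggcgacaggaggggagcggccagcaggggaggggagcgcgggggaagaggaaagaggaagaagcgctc
CDKN2B (chr9:22009364-22009555, minus strand): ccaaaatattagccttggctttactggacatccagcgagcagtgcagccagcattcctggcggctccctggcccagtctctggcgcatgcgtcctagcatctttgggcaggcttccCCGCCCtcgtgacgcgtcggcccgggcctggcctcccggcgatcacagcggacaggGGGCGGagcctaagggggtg

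RBL1 held 2 E2F words, at -26 and -16 from its start. Of the members with an entry, RB1 left aside, it alone had such a word in the 250 bases before an annotated start. On both strands, 2.8% of 35116 promoter windows of 250 bases held such a word. CDKN2B held CCGCCC at -134 and its reverse complement at -78, counted from the annotated start and not from the end of the stretch shown. CCGCCC or its reverse complement was also found in windows of CDKN1B, CDKN2C and CDKN2D. Of all promoter windows, 42.6% hold at least 1. A match is a description of the letters and not of binding. CDKN1C has no entry, and the entry for RB1 starts 172699 bases into its gene and was left aside.

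The 9 genes differed widely in level per length. CDKN2A was the highest, with a mean scaled value of 127.8 over the 10 libraries, above 91.0% of 13067 protein-coding genes. CDKN1B followed at 27.5, RB1 at 21.4, CDKN2D at 19.9, CDKN2B at 16.1, RBL2 at 14.1, CDKN1C at 13.7, CDKN2C at 7.39 and RBL1 at 5.52. CDKN2A alone made 50.3% to 54.9% of the summed level of the 9 in the knockout libraries, and 38.9% and 47.2% in the 2 parental ones. The order below CDKN2A is of means and was not tested, and the ranges over libraries of RB1 (20.7 to 22.5), CDKN2D (16.9 to 25.6) and CDKN2B (9.64 to 22.0) overlapped.

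**Figure D1:**
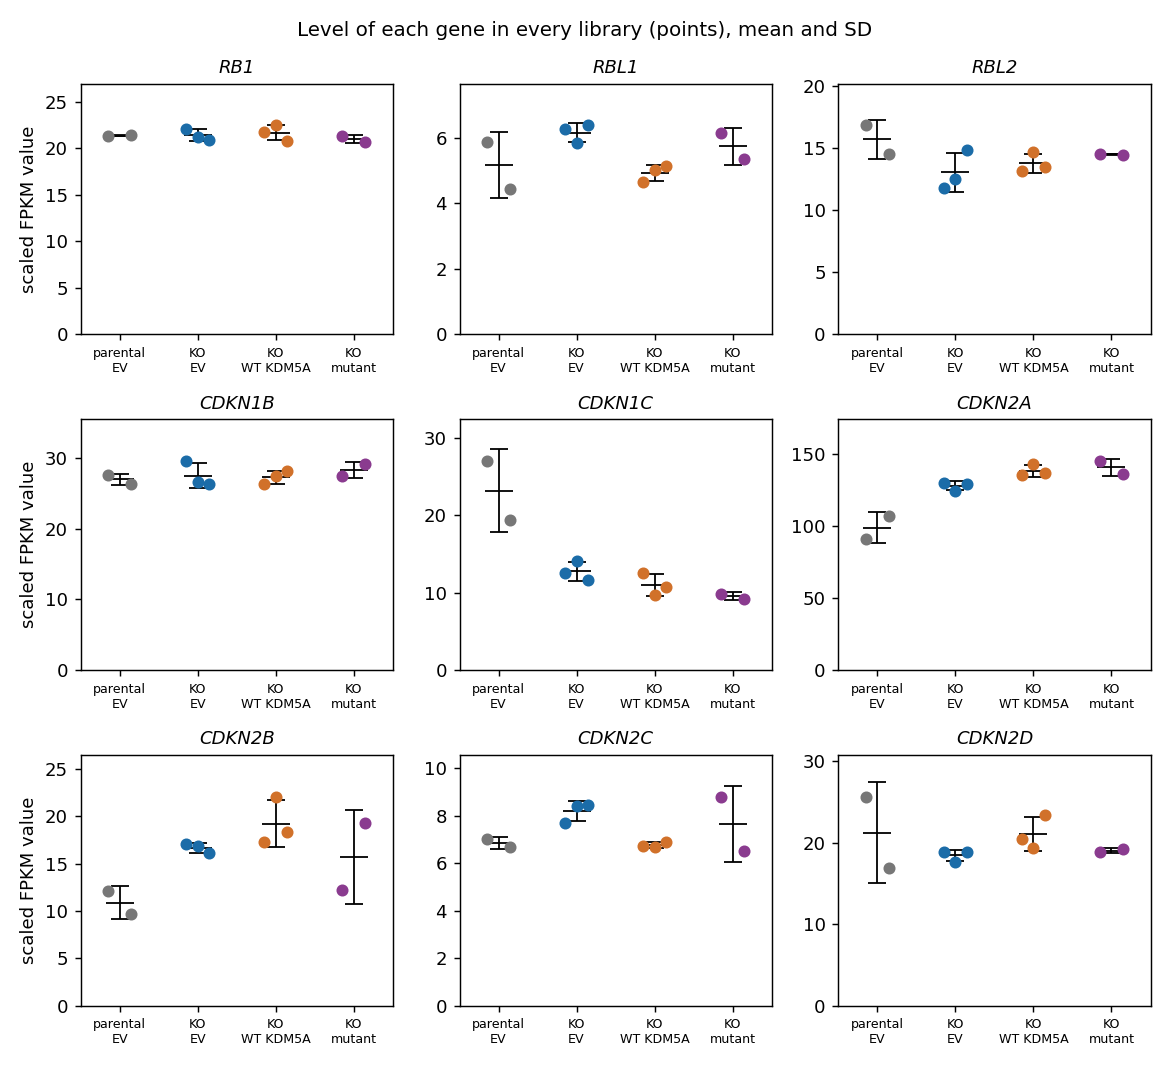
Scaled FPKM value (vertical axis, from 0, with a range of its own for each gene) of the 9 genes in every library, by group, with the mean and SD as bars. CDKN1C is higher and CDKN2A and CDKN2B are lower in the 2 parental libraries than in the 3 knockout libraries with empty vector, while RB1 lies between 20.7 and 22.5 in every library.

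Counted over the 9 genes, 0 passed with wild-type KDM5A against empty vector, where 4.54% of all genes tested did. With mutant KDM5A 0 passed, against 16.5% of all genes, and between mutant and wild-type KDM5A 0 passed, against 0.0562%. In the parental comparison 2 of 9 passed, against 8.94% of all genes: CDKN1C was higher, as 4.09% of all genes were, and CDKN2A was lower, as 4.84% were. Over the 4 groups together 2 of 9 passed limma's F-test, the same 2 genes, against 24.1%. In the 3 plasmid comparisons the unadjusted p was under 0.05 only for RBL1 with wild-type KDM5A and for CDKN1C with mutant KDM5A. In the parental comparison it was under 0.05 for 4 of the 9. The share of all genes under that unadjusted threshold is not given here. The median log2 fold change of the 9 was 0.02, -0.02, 0.02 and -0.03 in these 4 comparisons in turn, beside 0.00, -0.01, -0.00 and -0.00 over all genes. All 9 members are protein-coding, and the share that passed was higher when only protein-coding genes were tested. It was then 7.91%, 23.4%, 0.0995% and 14.2% in the 4 comparisons in turn, and 36.7% over the 4 groups. In that fit CDKN2B also passed in the parental comparison.

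The count for mutant KDM5A depends on the scaling. With the values as deposited 5 members passed as lower (RB1, CDKN1B, CDKN1C, CDKN2A and CDKN2C). There 37.2% of all genes passed in either direction, and the median over all genes was itself -0.30. With the libraries brought to a common scale 0 passed, against 16.5% of all genes. The mutant libraries are also among those of lower protein-coding share. The part of that share in the count was not tested beyond a fit with it as a covariate. In that fit 0 members passed, against 0.776% of all genes.

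No pocket protein gene passed the test in any comparison. RB1 encodes the retinoblastoma protein, and its scaled values were 22.1, 21.2 and 20.9 in the 3 knockout libraries with empty vector, 21.8, 22.5 and 20.8 with wild-type KDM5A, 21.3 and 20.7 with mutant KDM5A, and 21.3 and 21.4 in parental cells. All 10 values lay between 20.7 and 22.5, the groups overlapped except that both mutant libraries were at or just below the lower parental one, and no group stood apart from all others. The log2 fold change with wild-type KDM5A was 0.02 (95% interval -0.11 to 0.15, adjusted p = 0.909, limma), and the parental difference was -0.00 (95% interval -0.15 to 0.15).

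The SD of RB1 over the 10 libraries was 0.036 on the log2 scale, and only 2 of 13067 protein-coding genes varied less. That rank depends on the scaling: with the values as deposited the SD was 0.14 and 1941 genes varied less, and after quantile normalization it was 0.041 and 34 genes varied less. The deposited RB1 locus runs from 48303751 to 48481986 on chromosome 13 (GRCh38), short of the GENCODE 29 gene end at 48599436. Which RB1 transcripts reach past the deposited end was not examined. LPAR6, which lies inside RB1 on the other strand, was at 0.399 or less, and the pseudogene PCNPP5, also inside RB1 on the other strand, was at 3.496 or less.

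RBL1 encodes p107, a pocket protein made mostly in cycling cells. It stood at 6.28, 5.84 and 6.39 with empty vector, 4.64, 5.01 and 5.14 with wild-type KDM5A, 6.15 and 5.35 with mutant KDM5A, and 5.89 and 4.46 in parental cells. All 3 wild-type libraries lay below all 3 empty-vector libraries, by a log2 fold change of -0.27 (SE 0.117), which did not pass (adjusted p = 0.228, limma; unadjusted p = 0.0443). The mutant libraries fell between these groups or within the empty-vector range, and the parental pair reached from the lowest value of all 10 libraries into the empty-vector range.

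RBL2 encodes p130, the pocket protein of the DREAM complex of resting cells. Its scaled values were 11.8, 12.5 and 14.8 with empty vector, 13.2, 14.7 and 13.4 with wild-type KDM5A, 14.5 and 14.5 with mutant KDM5A, and 16.8 and 14.6 in parental cells. Both mutant libraries lay just below both parental ones, the other groups overlapped, and the highest value was in parental library 1. The parental log2 fold change was 0.25 (95% interval 0.00 to 0.50, adjusted p = 0.19, limma). AKTIP, at 15.6 to 22.7, overlaps the 3′ end of RBL2 on the other strand, and the sources used here do not say whether reads were assigned by strand.

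**Figure D2:**
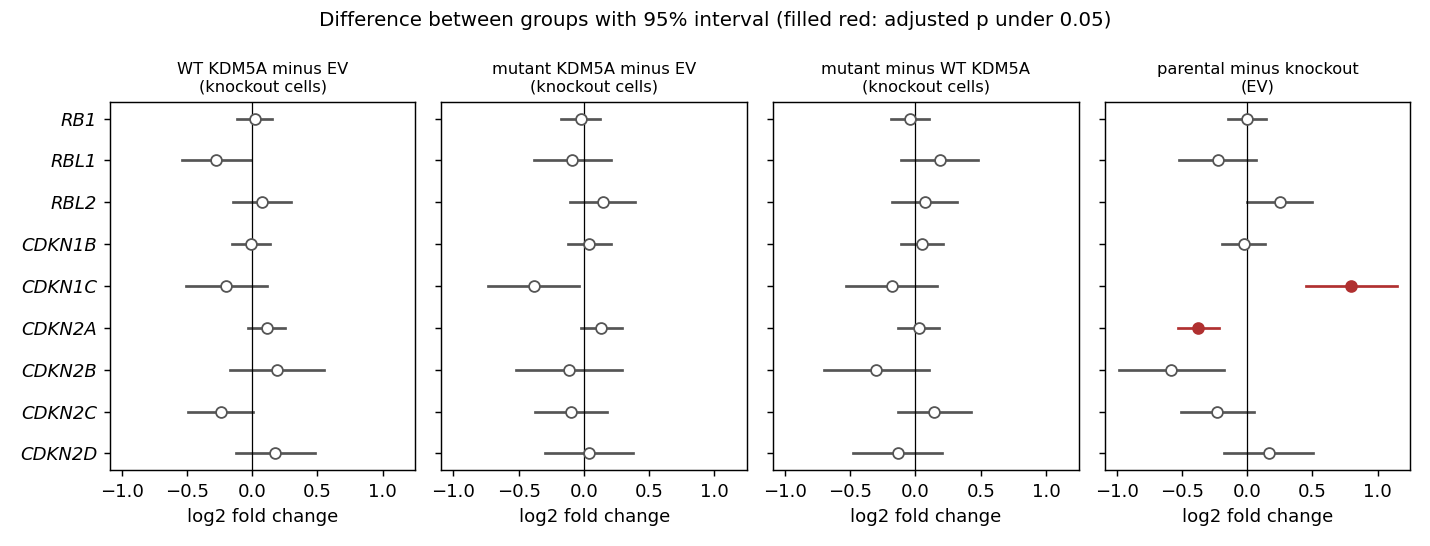
log2 fold change (horizontal axis) of each gene in the 4 comparisons, with its 95% interval from limma; filled red points had an adjusted p under 0.05. CDKN1C at 0.80 and CDKN2A at -0.37 in the parental comparison are the 2 filled points, and no gene is filled in the 3 plasmid comparisons.

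Of the CIP/KIP genes, CDKN1C was higher in parental cells and CDKN1B stayed within a narrow band. CDKN1B encodes p27, an inhibitor controlled largely at the level of protein stability. It was at 29.6, 26.6 and 26.4 with empty vector, 26.4, 27.5 and 28.2 with wild-type KDM5A, 27.5 and 29.1 with mutant KDM5A, and 27.6 and 26.4 in parental cells. The groups overlapped, the 95% intervals of the 4 log2 fold changes lay within -0.19 and 0.21, and 94 of 13067 protein-coding genes had a smaller SD over the libraries. This count was 1471 with the values as deposited and 179 after quantile normalization.

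CDKN1C encodes p57, an imprinted inhibitor linked to leaving the cell cycle. It stood at 27.0 and 19.4 in the parental libraries, against 12.6, 14.1 and 11.6 in the knockout libraries with empty vector. Both parental values were above every knockout library, including those with wild-type KDM5A (12.6, 9.70 and 10.8) and mutant KDM5A (9.88 and 9.19). Parental cells were higher by a log2 fold change of 0.80 (SE 0.153, 95% interval 0.45 to 1.14, adjusted p = 0.0153, limma), a ratio of means of 1.82.

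The size of the CDKN1C difference rests on parental library 1. Without that library it was 0.57 (adjusted p = 0.0566), and without parental library 2 it was 1.03. It also lost the call without knockout empty-vector library 3 (0.74, adjusted p = 0.057), with no filter on low values (adjusted p = 0.0823) and in a fit of only the 5 libraries compared (adjusted p = 0.0737). With the share of protein-coding genes added to the fit it was 1.02.

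Neither KDM5A plasmid was followed by a change of CDKN1C that passed. The log2 fold change was -0.20 (adjusted p = 0.466) with wild-type and -0.38 (SE 0.153, 95% interval -0.73 to -0.04, adjusted p = 0.12, limma) with mutant KDM5A, both mutant libraries being below all 3 empty-vector libraries. The group means with the plasmids lay farther from the parental mean than that with empty vector. Against parental cells the log2 fold change was -0.998 (adjusted p = 0.00392) with wild-type and -1.18 (adjusted p = 0.00246) with mutant KDM5A. These comparisons share the parental libraries with the one above, and 14.5% and 19.6% of all genes passed in them.

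CDKN1A, which encodes p21, is the relative left out by the rule. Its scaled values were 311.7, 320.7 and 317.5 with empty vector, 396.5, 399.3 and 399.6 with wild-type KDM5A, 325.1 and 374.1 with mutant KDM5A, and 409.8 and 347.6 in parental cells. All 3 wild-type libraries were above all 3 empty-vector libraries, and the log2 fold change of 0.33 (SE 0.0703, adjusted p = 0.0354, limma) passed. The call was lost when any 1 of these 6 libraries was left out (highest adjusted p 0.119).

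In the INK4 group, CDKN2A was lower in parental than in knockout cells, and the other 3 genes did not pass. The summed level of the 4 INK4 genes was 173.8, 167.6 and 172.7 in the knockout libraries with empty vector and 135.9 and 139.8 in the parental ones. Most of that sum is CDKN2A, which encodes p16 and, from another first exon, p14ARF, the protein that restrains MDM2. The gene-level value adds both transcripts and cannot tell them apart.

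CDKN2A was at 91.2 and 106.6 in parental cells, and at 130.1, 124.6 and 129.3 in knockout cells with empty vector. The groups did not overlap, and every other knockout library was higher still, at 135.1, 143.1 and 136.9 with wild-type KDM5A and 145.0 and 136.4 with mutant KDM5A. Parental cells were lower by a log2 fold change of -0.37 (SE 0.0699, 95% interval -0.53 to -0.22, adjusted p = 0.0136, limma), a ratio of means of 0.772. Leaving out 1 library at a time moved this value from -0.48 to -0.26, the latter without parental library 1, and ended the call only without knockout empty-vector library 3 (adjusted p = 0.052). It was also lost with no filter (adjusted p = 0.0567), in a fit of only the libraries compared (adjusted p = 0.077) and with replicate numbers as a block.

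The difference of CDKN2A from the empty-vector libraries did not pass with either plasmid. It was 0.11 (95% interval -0.03 to 0.25, adjusted p = 0.361, limma) with wild-type and 0.13 (95% interval -0.02 to 0.29, adjusted p = 0.219) with mutant KDM5A. Its direction with the mutant depended on the scaling: with the values as deposited it was -0.20 (adjusted p = 0.0162), where the median over all genes was -0.30.

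CDKN2B encodes p15, an inhibitor known as a target of TGF-beta signalling, and lies next to CDKN2A on chromosome 9, both on the minus strand. Its scaled values were 12.1 and 9.64 in parental cells, 17.1, 16.8 and 16.1 in knockout cells with empty vector, 17.3, 22.0 and 18.3 with wild-type KDM5A, and 12.2 and 19.2 with mutant KDM5A. Both parental values were below every other library, although mutant library 1 came close, and the 2 mutant libraries were far apart. The parental log2 fold change was -0.58 (SE 0.179, 95% interval -0.99 to -0.18) with an adjusted p of 0.08 (limma), which did not pass.

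The same difference in CDKN2B passed without mutant library 1 (adjusted p = 0.025), without mutant library 2 (adjusted p = 0.0252) and among protein-coding genes only (adjusted p = 0.0483). Against parental cells, CDKN2B was higher with wild-type KDM5A by 0.77 (adjusted p = 0.022), and by 0.47 with mutant KDM5A (adjusted p = 0.127). The antisense RNA CDKN2B-AS1 overlaps both CDKN2A and CDKN2B on the opposite strand and was at 0.681 to 2.19, well below both genes.

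CDKN2C encodes p18 and CDKN2D encodes p19, and both did not pass in any comparison. CDKN2C was at 7.71, 8.41 and 8.47 with empty vector and at 6.74, 6.67 and 6.91 with wild-type KDM5A, so these groups did not overlap, but the log2 fold change of -0.24 (SE 0.11) had an adjusted p of 0.255 (limma). It was at 8.79 and 6.54 with mutant KDM5A, and at 7.03 and 6.67 in parental cells. CDKN2D was at 18.9, 17.7 and 18.9 with empty vector, 20.5, 19.4 and 23.4 with wild-type KDM5A, 18.8 and 19.2 with mutant KDM5A, and 25.6 and 16.9 in parental cells. The parental pair of CDKN2D held both the highest and the lowest value of all 10 libraries, which leaves its parental log2 fold change of 0.16 with a 95% interval of -0.18 to 0.50.

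**Figure D3:**
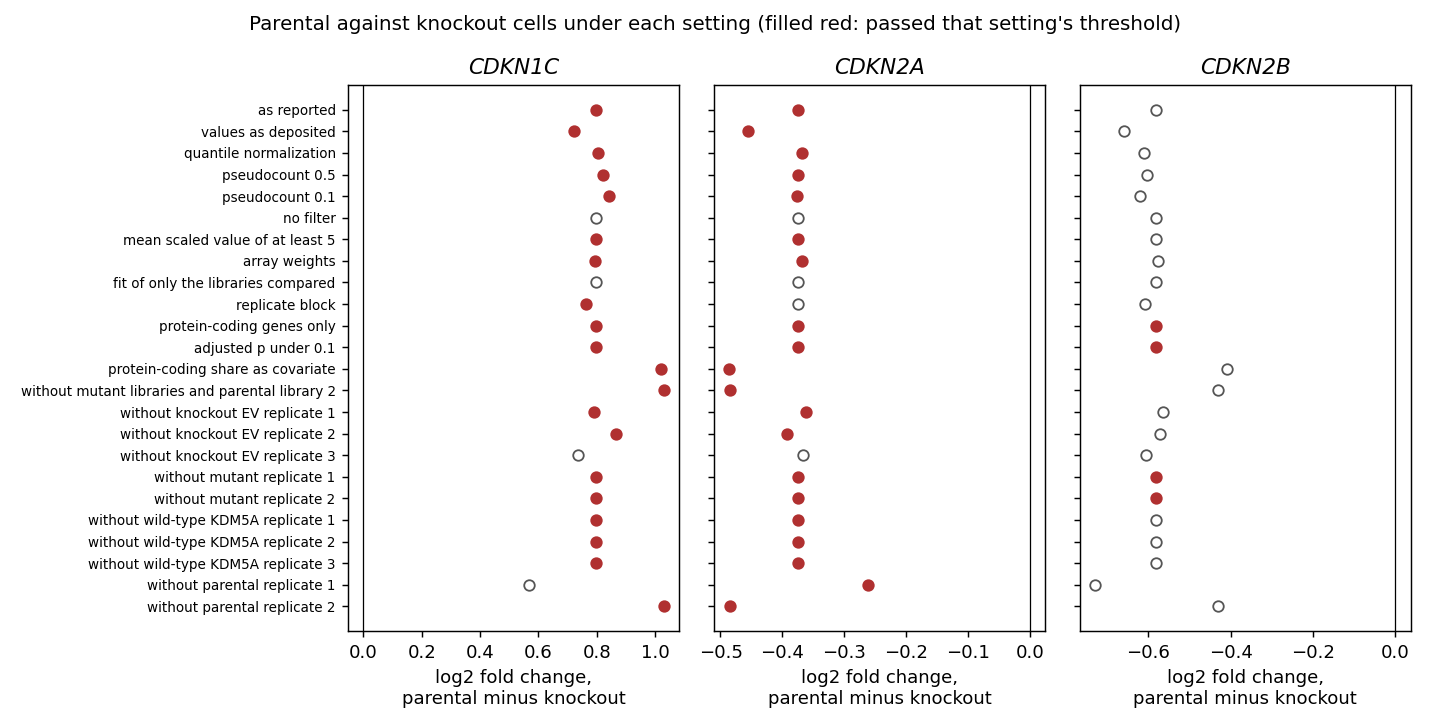
Parental minus knockout log2 fold change (horizontal axis) of CDKN1C, CDKN2A and CDKN2B under each way of processing the data, one per line; filled red points passed that setting's threshold. The sign is the same in every line for these 3 genes, while the call for CDKN1C and CDKN2A is lost in some lines and the call for CDKN2B is made in a few.

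Over the 10 libraries, CDKN1C and CDKN2A ran opposite to each other (Pearson r = -0.975), RBL1 and CDKN2C ran together (r = 0.79), and so did CDKN2A and CDKN2B (r = 0.646). These are descriptions over libraries that share 4 groups. The protein-coding genes most like CDKN1C over the 10 libraries were CHST2 (r = 0.982), SLC27A1 (0.981) and SCD5 (0.978), and all 3 had their highest group mean in parental cells. Those most like CDKN2A were NOLC1 (0.978), PRKCDBP (0.978) and PRRT3 (0.964), all lowest in parental cells, with NOLC1 at a mean of 188 there and 241 in knockout cells with empty vector. For CDKN2B they were PSMD2 (0.943), CHTF18 (0.943) and TLDC1 (0.94), again lowest in parental cells.

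RBL1 was followed by GPR19 (r = 0.913), RAB30 (0.909) and ARV1 (0.895), and CDKN2C by RSF1 (0.94), WAC (0.925) and CDKAL1 (0.921). RBL2 was followed by CCBL1 (0.929), UCKL1 (0.907) and TANGO2 (0.879), and CDKN2D by DNAJC4 (0.926), TCP11L2 (0.918) and PFKP (0.911). RB1 was followed by LHX1 (0.926), NPEPPS (0.912) and BDH2 (0.899), and CDKN1B by TMEM18 (0.866), FAM172A (0.827) and KCNAB3 (0.825), although RB1 and CDKN1B themselves hardly varied. LHX1 had a low mean scaled value of 0.469, and GPR19 and CHST2 were at 1.05 and 1.08. The genes named have the highest r of all protein-coding genes tested, and the r expected from such a choice was not computed.

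Genes around these members were read from 7 lists of the pathway. Counts of list genes with an unadjusted p under 0.05 are given below without the share of all genes at that threshold. Over all genes tested, 9.48% were higher and 7.05% lower with mutant KDM5A. With the share of protein-coding genes in the fit, 0.776% of all genes were called with mutant KDM5A in either direction, and the cause of that drop was not tested. Among the list genes, the adjusted p in that fit is given below for CCNE1 and MNAT1 only. In parental cells 4.09% of all genes were higher and 4.84% lower than in knockout cells. Of the E2F targets, which the pocket proteins restrain, 4 of 17 were lower and 0 were higher in parental cells, with a median log2 fold change of -0.18 beside -0.00 over all genes. MCM5 (-0.60, adjusted p = 0.00326) and MCM2 (-0.46, adjusted p = 0.00189) encode subunits of the replicative helicase, CDT1 (-0.43, adjusted p = 0.00811) loads it, and TK1 (-0.28, adjusted p = 0.0205) makes thymidine phosphate. MCM2 was at 68.2 and 62.2 in parental cells against 88.3, 89.5 and 91.5 in knockout cells with empty vector, with no overlap.

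MCM2 and MCM5 kept the call with each library left out in turn (highest adjusted p 0.0126 and 0.0274), CDT1 lost it without 1 of the 10, and TK1 without 3. With mutant KDM5A, CDT1 (-0.30, adjusted p = 0.0212), MCM5 (-0.30, adjusted p = 0.0346) and CCNA2 (-0.26, adjusted p = 0.0394) were lower and TYMS (0.21, adjusted p = 0.0416) was higher, of the same 17. All 4 calls failed for 4 or more of the 10 libraries left out in turn, and the sign of TYMS turned with the values as deposited (-0.13). Leaving out mutant library 2 took CCNA2 to -0.17, and leaving out mutant library 1 took TYMS to 0.14. CCNA2 and TYMS are named because they passed. With wild-type KDM5A 0 of 17 passed by limma, and 3 had an unadjusted p under 0.05, as had 7 with mutant KDM5A and 13 in the parental comparison. As the share of all genes at that threshold is not given, the unadjusted counts cannot be read as an excess.

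Of the E2F and DP factors, 1 of 10 was higher and 2 were lower in parental cells. E2F5, a repressor E2F that binds p130, was higher by 0.72 (adjusted p = 0.0177), E2F2, an activator, was lower by a log2 fold change of -0.48 (adjusted p = 0.0147) and E2F4, the main partner of p130 and p107, was at -0.22 (adjusted p = 0.0408). E2F5 lost the call without 2 libraries, E2F2 without 3 and E2F4 without 7 of the 10 left out in turn. With either plasmid 0 of 10 passed by limma, with an unadjusted p under 0.05 for 3 in each comparison. In the list of the DREAM and MuvB complexes, RBBP4, a histone-binding subunit, was higher (0.27, adjusted p = 0.00873) and MYBL2, which encodes B-MYB, was lower (-0.37, adjusted p = 0.00748) of 7 in parental cells, both with every library left out in turn, and 0 of 7 passed with either plasmid by limma, with an unadjusted p under 0.05 for 0 with wild-type and 1 with mutant KDM5A.

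Among 10 G1 cyclins and kinases, CDK4, the target of INK4 proteins, was lower in parental cells (-0.42, adjusted p = 0.0339), a call lost without 7 of the 10 libraries in turn. Leaving out parental library 1 gave -0.61, and leaving out library 2 gave -0.23. CCNE1, which encodes cyclin E1 (0.37, adjusted p = 0.0256), and MNAT1, a subunit of the CDK-activating kinase (0.56, adjusted p = 0.00836), were higher with mutant KDM5A, and MNAT1 kept the call with each library left out while CCNE1 lost it for 4 of the 10. Neither passed with the values as deposited, CCNE1 being at 0.04 (adjusted p = 0.808) and MNAT1 at 0.22 (adjusted p = 0.0738), and with the share of protein-coding genes in the fit CCNE1 had an adjusted p of 0.124 and MNAT1 of 0.172. CCND2 did not pass the filter on low values, and 0 of 10 passed with wild-type KDM5A by limma, 2 of them with an unadjusted p under 0.05.

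RB recruits chromatin proteins, enzymes among them, to the genes it silences, and the genes of 9 such partners were read. With mutant KDM5A the histone deacetylase genes HDAC1 (0.22, adjusted p = 0.0149) and HDAC2 (0.26, adjusted p = 0.041) were higher, and ARID4B (-0.46, adjusted p = 0.0179) and the DNA methyltransferase gene DNMT1 (-0.33, adjusted p = 0.0265) were lower. HDAC2 was at 0.13 without mutant library 1 and 0.40 without mutant library 2. With the values as deposited HDAC1 was at -0.12 and HDAC2 at -0.08, so their direction depended on the scaling, and all 4 calls failed for 2 or more of the libraries left out in turn. In parental cells DNMT1 was lower (-0.34, adjusted p = 0.036), lost without 6 of the 10 libraries in turn, and 0 of 9 passed with wild-type KDM5A by limma, 1 of them with an unadjusted p under 0.05.

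**Figure D4:**
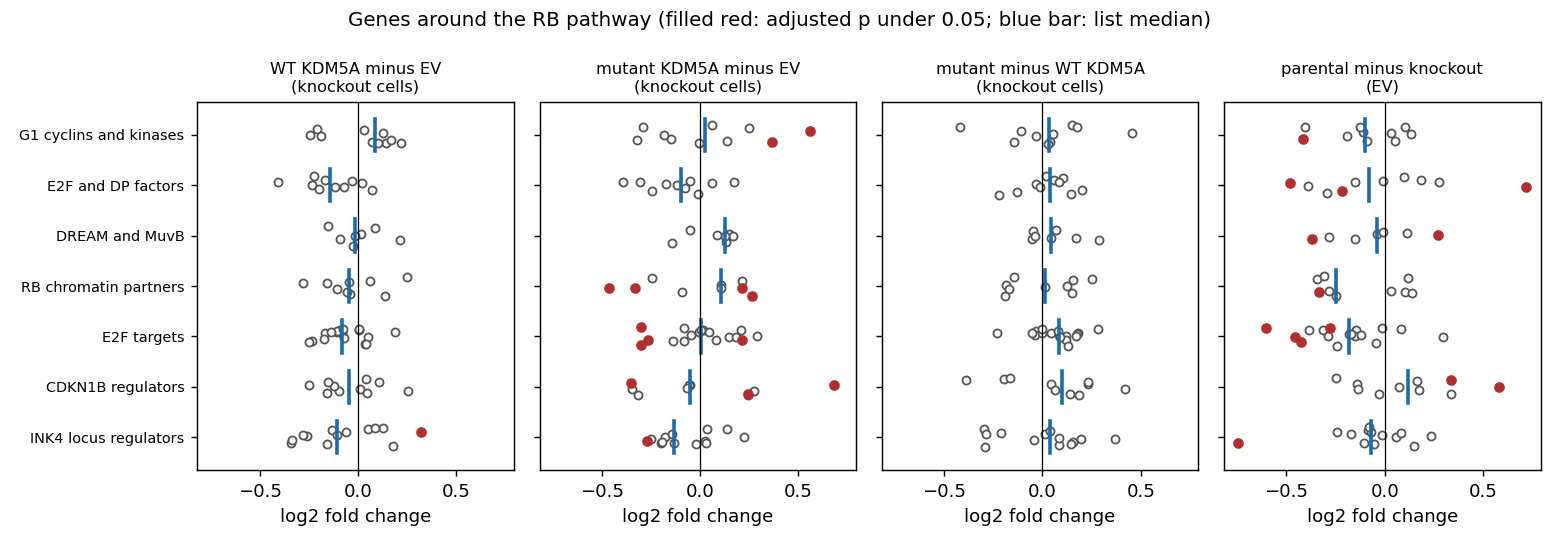
log2 fold change (horizontal axis) of every tested gene of the 7 pathway lists in the 4 comparisons, with each list's median as a blue bar; filled red points had an adjusted p under 0.05. The 4 filled points of the E2F targets in the parental comparison all lie to the left of 0, and the mutant against wild-type comparison holds no filled point.

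Of 10 genes for the turnover and transcription of CDKN1B, AKT1, a kinase that phosphorylates p27 and the FOXO factors, was higher in parental cells (0.34, adjusted p = 0.00401) and with mutant KDM5A (0.24, adjusted p = 0.0113). AKT1 was at 117.6 and 111.4 in parental cells, 106.4 and 108.4 with mutant KDM5A, and 89.6, 90.7 and 91.4 with empty vector in knockout cells, and these groups did not overlap. With the values as deposited the mutant difference was -0.09, so its direction depended on the scaling. FOXO1, a transcription factor for CDKN1B, was higher in parental cells (0.58, adjusted p = 0.0321), but lost the call without 8 of the 10 libraries in turn. SKP1, of the SCF ubiquitin ligase, was higher (0.68, adjusted p = 0.0281) and FOXO3 was lower (-0.35, adjusted p = 0.0159) with mutant KDM5A, each lost without 3 libraries, and SKP1 also as deposited (0.34, adjusted p = 0.0662). With wild-type KDM5A 0 of 10 passed by limma, 3 of them with an unadjusted p under 0.05.

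Among 13 Polycomb and other regulators of the INK4 locus, ETS1, a transcription factor known to activate CDKN2A, was the one called in 2 comparisons. It was at 20.4 and 19.5 in parental cells, 33.6, 34.6 and 34.1 in knockout cells with empty vector, 44.2, 42.4 and 42.1 with wild-type KDM5A, and 33.5 and 36.2 with mutant KDM5A. Parental values were below all others (-0.74, SE 0.0607, adjusted p = 0.000412, limma), with every library left out in turn. The values with wild-type KDM5A were above all others (0.32, adjusted p = 0.0156), a call lost without 6 of the 10 libraries in turn (highest adjusted p 0.0738). KDM2B, a demethylase that brings Polycomb to CpG islands, was lower with mutant KDM5A (-0.27, adjusted p = 0.0319), lost without 7 libraries in turn. No other gene of the list passed in the 4 comparisons. Between mutant and wild-type KDM5A no gene of the 7 lists passed by limma, and the lists held 0 to 5 genes each with an unadjusted p under 0.05. That range was also 0 to 5 with wild-type KDM5A, 1 to 7 with mutant KDM5A and 3 to 13 in the parental comparison. Without the share of all genes at that unadjusted threshold, these counts cannot be read as an excess.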

How the data were processed

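RNA was measured in 10 libraries. Per the submitters' processing notes, the tools were Cufflinks 2.2.1, GATK 4.1.2, STAR 2.7.1a and Picard, with the GRCh38 genome. Their roles, the annotation release and the strand setting are not given in the sources used here. The authors deposited log2 FPKM values, 60141 loci per library. The values are of log2(FPKM + 1), and their linear sums are 999975 to 1000008. Each deposited value is therefore a share of a total that is nearly the same in every library, and depth and counting error are unknown.

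Linear values were summed per symbol and divided by the median ratio over 13651 genes at 1 or more in every library. Genes reaching a scaled 1 in 2 or more libraries were tested on log2(scaled value + 1), which understates changes of low genes. limma 3.58.1 (R 4.3.3, trend) was fitted to all 10 libraries with 4 group means, two-sided, with Benjamini-Hochberg adjustment over 17779 genes in each comparison and a threshold of 0.05. Python 3.11.15, pandas 2.3.3 and matplotlib 3.10.9 were also used. The test was checked on simulated data.

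The members and lists were chosen with earlier results of these data known. Named were all members, CDKN1A, KDM5A, up to 4 list genes of smallest p, and the 3 genes most correlated with each member; other list genes are named because they passed. Alternatives were other scalings, pseudocounts, filters, weights, covariates, thresholds, gene sets and each library left out.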

Additional observations from a re-analysis of the deposited data

How the results depend on the processing

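For wild-type KDM5A 0 members passed under every alternative run. With the values as deposited 5 members passed with mutant KDM5A, against 37.2% of all genes. Between mutant and wild-type KDM5A 1 (CDKN2A) passed, against 8.41%, and over the 4 groups 4 passed, against 35.9%. The median over all genes was then -0.30 with mutant KDM5A, -0.19 between mutant and wild-type KDM5A, and -0.10 with wild-type KDM5A. In the parental comparison 0 passed with no filter, 0 in a fit of only the libraries compared, and 0 to 3 with each library left out. With replicate numbers as a block (replicate block) 1 passed, CDKN1C, against 3.13% of all genes, and CDKN2A had an adjusted p of 0.0606. The correlation of same-numbered libraries ran from -0.175 to 0.106, and 1 of 6 empty-vector and wild-type libraries correlated best with its own number. With 2 or 3 libraries per group, this check cannot decide whether the numbers mark shared batches. The block changed the count of members called in no other comparison. Over all genes tested, the count called ranged over the alternatives from 178 to 2101 for wild-type KDM5A, 138 to 6615 for mutant KDM5A, 1 to 1496 between them, and 464 to 2727 in the parental comparison, the last 2 extremes being the fit of only the libraries compared and an adjusted p under 0.1. For mutant KDM5A the extremes were the fit with the share of protein-coding genes (0.776% of all genes) and the values as deposited (37.2%).

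Signs turned for members and for list genes, and not only for those near 0. HDAC2 and AKT1, which had passed with mutant KDM5A at 0.26 and 0.24, were among them. With the values as deposited they turned for wild-type KDM5A in RB1 (-0.0917), RBL2 (-0.0313) and CDKN2A (-0.00267), for mutant KDM5A in RBL2 (-0.171), CDKN1B (-0.288), CDKN2A (-0.204), CDKN2D (-0.283), HDAC1 (-0.124), HDAC2 (-0.077), TYMS (-0.128) and AKT1 (-0.0942), and between mutant and wild-type in RBL1 (-0.00567), RBL2 (-0.14), CDKN1B (-0.167), CDKN2A (-0.201) and CDKN2C (-0.0543). After quantile normalization they turned for CDKN1B (0.00294, wild-type), RB1 (0.00885), CDKN2A (-0.0208), HDAC1 (-0.0354) and TYMS (-0.00527, all mutant), and CDKN2A between mutant and wild-type (-0.0688). Array weights turned CDKN1B (0.00194, wild-type) and RB1 (0.004, parental). With the share of protein-coding genes in the fit they turned for RBL1 (0.164), CDKN2A (-0.0278) and CDKN2B (0.136) with the mutant, for CDKN1C (0.16), CDKN2A (-0.153) and CDKN2D (0.319) between mutant and wild-type, and for CDKN1B in parental cells (0.00599).

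With each library left out, values crossed 0 for RB1 (-0.00691 to 0.0453) and CDKN1B (-0.0378 to 0.0413) with wild-type KDM5A, CDKN2B (-0.422 to 0.197) and CDKN2C (-0.286 to 0.0908) with mutant KDM5A, CDKN2A (-0.02 to 0.0678), CDKN2B (-0.61 to 0.00873) and CDKN2C (-0.0444 to 0.333) between them, and RB1 (-0.0205 to 0.0201), CDKN1B (-0.0568 to 0.0249) and CDKN2D (-0.121 to 0.451) in parental cells. Without the mutant libraries and parental library 2, chosen after seeing the data, CDKN1C was at 1.03 (adjusted p = 0.0197), CDKN2A at -0.485 (adjusted p = 0.00752) and CDKN1B turned to 0.00477. The parental arm is then 1 library, assumed to vary like the other groups, as in each fit without 1 mutant or parental library. The cause of these changes was not tested. The number of libraries, and an unknown depth, limit the precision.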
